A study of Mus musculus with 3 samples.

Results

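The DEAD box and DEAH box RNA helicases of the mouse were followed through 3 spleen populations: the cells titled natural killer B (NKB) cells, natural killer (NK) cells, and B cells. A gene was counted as a member when its name in the array annotation began with Ddx or Dhx and a digit. The rule gave 52 of the 24203 genes on the array, 37 with a Ddx name and 15 with a Dhx name, and 108 of its 44170 transcripts. Each population came from wild-type C57/BL6 mice, whose spleens were taken for sorting at 8 weeks of age, and no treatment or engineered allele is named for any of them. Total RNA of each population was primed with oligo dT, labelled with Cy3 and hybridised to 1 single-colour NimbleGen expression array. The sources used here give neither the gate that separated the populations nor the number of mice behind each array. With 1 array per population and no replicate, differences could not be tested, and each one below compares 2 arrays.

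DEAD and DEAH box proteins are enzymes that use ATP to open RNA duplexes, displace proteins from RNA or clamp onto it, and they are named after the amino acids of the motif that binds and splits ATP. They drive the rearrangements of the spliceosome, the assembly of ribosomal subunits in the nucleolus, export of mRNA through the nuclear pore, the start of translation and the decay of mRNA. In lymphoid and myeloid cells some members also act as sensors of viral RNA or cytosolic DNA, with RIG-I, the product of Ddx58, as the best known of them.

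On the NKB array, 5 helicase genes stood at least 2-fold above both other populations: Dhx9, Dhx15, Ddx1, Ddx23 and Ddx17. Ddx3x alone stood at least 2-fold below both. The sequences below are the 250 bases before the annotated start of the genes with the 3 largest NKB excesses over B that were measured above the detection level on both arrays, and of Ddx3x. They come from RefSeq on build GRCm38.p6, are written 5′ to 3′ on the strand of the gene, and lie at chr1:153487661-153487910 (minus strand) for Dhx9, chr12:13249175-13249424 (minus) for Ddx1, chr5:52190547-52190796 (minus) for Dhx15 and chrX:13280772-13281021 (plus) for Ddx3x. Capitals mark the motifs that were searched on both strands: the GC box GGGCGG, the CCAAT box, the ETS core CCGGAA and the E box CACGTG.
Dhx9: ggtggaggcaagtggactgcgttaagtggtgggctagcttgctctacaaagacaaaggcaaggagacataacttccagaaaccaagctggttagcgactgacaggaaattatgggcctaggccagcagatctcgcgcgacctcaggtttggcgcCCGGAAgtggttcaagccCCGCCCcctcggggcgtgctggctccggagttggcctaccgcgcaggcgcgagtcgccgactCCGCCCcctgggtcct
Ddx1: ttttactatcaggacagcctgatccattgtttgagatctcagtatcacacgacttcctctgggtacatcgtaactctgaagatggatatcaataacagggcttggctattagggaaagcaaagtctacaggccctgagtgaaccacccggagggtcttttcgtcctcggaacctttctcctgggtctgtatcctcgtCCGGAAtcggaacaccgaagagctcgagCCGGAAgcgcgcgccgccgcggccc
Dhx15: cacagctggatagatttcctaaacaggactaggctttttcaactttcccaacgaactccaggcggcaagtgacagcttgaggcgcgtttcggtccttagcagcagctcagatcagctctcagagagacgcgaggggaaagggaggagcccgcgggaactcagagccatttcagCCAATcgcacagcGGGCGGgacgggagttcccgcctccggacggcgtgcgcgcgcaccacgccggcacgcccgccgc
Ddx3x: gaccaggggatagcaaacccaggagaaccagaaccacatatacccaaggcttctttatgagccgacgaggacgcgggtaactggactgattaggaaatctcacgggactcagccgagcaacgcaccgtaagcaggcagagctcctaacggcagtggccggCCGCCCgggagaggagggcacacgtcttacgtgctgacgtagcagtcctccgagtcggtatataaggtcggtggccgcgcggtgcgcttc
The Dhx9 sequence holds 2 GC boxes and 1 ETS core, the Ddx1 sequence 2 ETS cores, the Dhx15 sequence 1 GC box and 1 CCAAT box, and the Ddx3x sequence 1 GC box. Their content of G and C is 62.0% for Dhx9, 53.6% for Ddx1, 62.8% for Dhx15 and 60.0% for Ddx3x. The promoter table matched 45 of the 52 members with 56 promoters, out of 32851 promoters in all. A GC box stood in 55.4% of the member promoters and 32.7% of all promoters, an ETS core in 33.9% and 12.0%, a CCAAT box in 42.9% and 33.8%, and an E box in 10.7% and 6.02%. These are counts of letters in a window and say nothing of binding. No motif of the 4 is shared by Dhx9, Ddx1 and Dhx15.

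As deposited, after the submitters' processing, the 3 arrays had close medians. The median transcript intensity was 65.1 for NKB, 64.8 for NK and 64.3 for B. These medians do not show how alike the arrays were before processing. A gene's intensity is the mean of its probe sets on the log2 scale, turned back to the deposited linear scale, and each probe set is 1 transcript read by 3 probes. As the detection level of an array served the 95th percentile of its 843 olfactory and vomeronasal receptor genes, which was 135 for NKB, 143 for NK and 152 for B. Lower values were raised to that level, so that any difference from them is a bound, written "at least". Single probe sets had their own level, found the same way, of 135.2 for NKB, 151.7 for NK and 152.1 for B. The B array had all 9 B cell markers on the array above the level and the NK array all 10 NK markers, while the NKB array had 9 B cell and 8 NK markers above it. The NK array had 1 B cell marker and the B array 1 NK marker above it. Summed intensities of the B cell markers were 25558 on NKB, 706 on NK and 25881 on B. For the NK markers they were 14559 on NKB, 58520 on NK and 717 on B. Of the 10 NK markers, 9 were called lower on NKB than on NK. Most of the NKB sum came from Ccl5 (8916) and Gzma (4098). Monocyte and macrophage markers, 10 on the array, were also above the level for 8 on NKB, 8 on NK and 1 on B, with summed intensities of 12107 on NKB, 7078 on NK and 1294 on B. Erythroid markers, 9 on the array, were above it for 3 on each array, with sums of 9600 on NKB, 6019 on NK and 1388 on B, and T cell markers, 9 on the array, for 4 on NKB, 4 on NK and 3 on B, with sums of 1537, 4665 and 1072 in that order. Their part in the helicase differences was not tested, and in RNA pooled over many cells, fewer cells that express a gene and less RNA per cell cannot be told apart.

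Of the 52 helicase genes, 30 were above the detection level on at least 1 array, or 57.7%, against 35.9% of all genes. NKB had 22 of them (42.3%), NK 15 (28.8%) and B 23 (44.2%), where the shares of all genes were 24.9%, 24.1% and 23.0%. The NK array therefore had the fewest helicase genes above its level, although it had more genes of all kinds above it than the B array. A total of 10 members were measured on all 3 arrays, 5 on NKB and B but not NK, 3 on NK and B but not NKB, and 2 on NKB and NK but not B. A further 5 passed the level on NKB alone (Ddx10, Ddx19b, Ddx23, Ddx51 and Dhx40), 5 on B alone (Ddx18, Ddx19a, Ddx41, Ddx54 and Dhx30), and 0 on NK alone. The remaining 22 were under the level on all 3 arrays as gene means. Of these, 10 had at least 1 probe set above the level of single probe sets on some array, and 12 had every probe set under it.

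**Figure D1:**
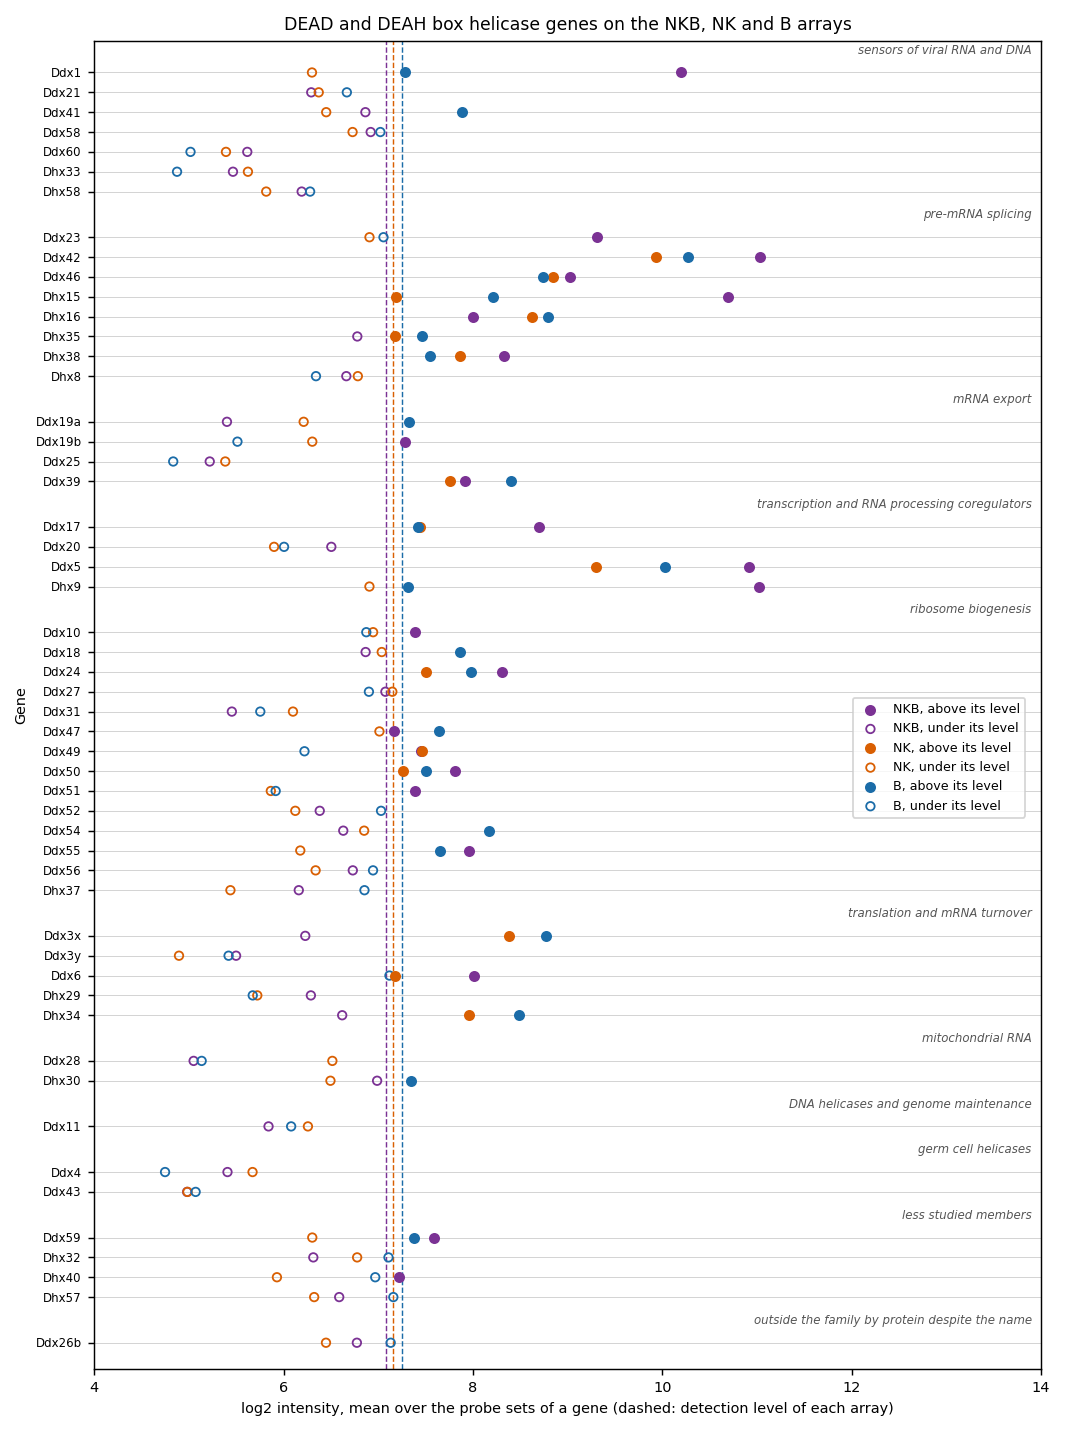
Log2 intensity of each of the 52 helicase genes (x axis, mean over its probe sets), grouped by role from top to bottom, on the NKB (purple), NK (orange) and B (blue) arrays. Filled points are above the detection level of their array, drawn as a dashed line, and open points are under it. Dhx9, Ddx1, Dhx15 and Ddx23 have a purple point far to the right of the other 2, and Ddx3x has its purple point far to the left.

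Between NKB and B, 5 members were called higher at 2-fold or more (Dhx9, Ddx1, Dhx15, Ddx23 and Ddx17), 3 lower (Ddx3x, Dhx34 and Ddx54) and 44 neither. That is 9.62% higher and 5.77% lower, beside 4.5% and 4.75% of all genes. Among genes above the level on at least 1 array, a subset that the differences themselves help to choose, 12.5% were higher and 13.2% lower, beside 16.7% and 10% of the 30 helicase genes. Between NKB and NK, 7 members were higher (the same 5 with Ddx5 and Ddx42) and 1 lower (Ddx3x). That is 13.5% and 1.92% of members beside 5.76% and 5.1% of all genes, and 23.3% and 3.33% of the 30 beside 16.0% and 14.2% of the genes above the level on at least 1 array. Between NK and B, 0 members were higher and 2 lower (Dhx15 and Ddx54), or 3.85% lower beside 2.84% of all genes, and 6.67% of the 30 beside 7.9%. Both of these calls fell just under 2-fold with quantile normalization (log2 -0.97 for each). For the higher direction between NK and B the share of all genes was 2.21%, and 6.14% among genes above the level. The 5 members above both populations stand beside 3.78% of all genes and the 1 member below both beside 2.37%, or beside 10.5% and 6.59% of genes above the level on at least 1 array. The NKB array enters both of its comparisons, so they are not independent of each other. Read against genes above the level, neither share of higher members sets the helicases apart as a family, so the results lie in the single genes below.

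Over all 52 members and with no detection level, the median log2 difference was 0.19 for NKB minus B, 0.30 for NKB minus NK and -0.31 for NK minus B. The same medians over all genes were 0.01, 0.02 and -0.03. The NKB value was above the B value in 28 of 52 members and above the NK value in 33, and the NK value was above the B value in 17. For all genes these shares were 50.5%, 50.9% and 48.2%. The NKB value was thus above B about as often as in genes at large. The NK value was below NKB in most members and, counted separately, below B in most members. These separate counts do not show that NK was below both in most members. They also include the 22 members under the level on every array, whose means have no order between arrays.

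**Figure D2:**
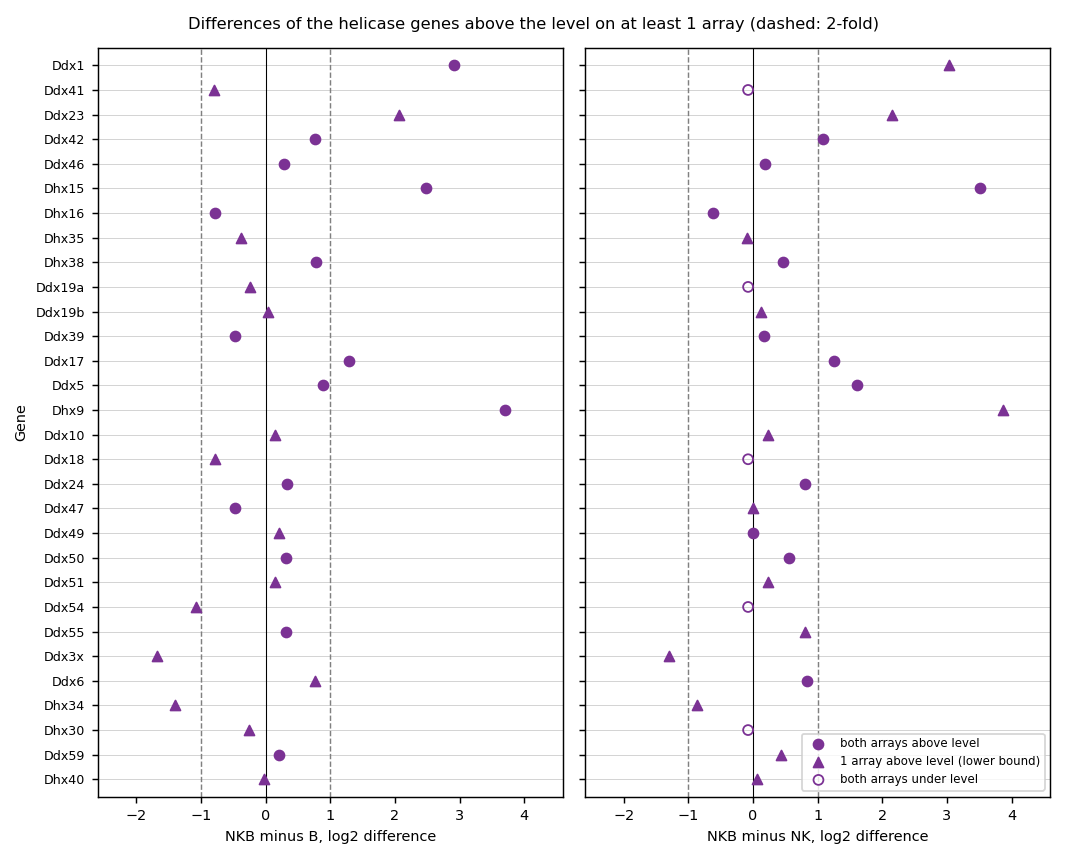
Log2 differences of NKB minus B (left) and NKB minus NK (right) on the x axis for the 30 helicase genes above the detection level on at least 1 array, in the same role order as the plot of levels. Circles are measured on both arrays, triangles are lower bounds on the size of a difference because 1 array was under its level, open circles had both arrays under it, and dashed lines mark 2-fold. Dhx9 lies farthest to the right in both panels and Ddx3x farthest to the left.

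Among the coregulators of transcription and RNA processing, 3 of 5 members were higher in NKB than in B and 4 of 5 higher than in NK, with 0 lower. The counts of this and later role groups stand beside 4.5% higher and 4.75% lower of all genes against B. Against NK these shares were 5.76% and 5.1%. Among genes above the level on at least 1 array they were 12.5% and 13.2%, and 16.0% and 14.2%. The role groups were chosen with earlier results of these data known, so their counts only describe them. Dhx9, RNA helicase A, unwinds double-stranded RNA and links transcription factors to RNA polymerase II. It read 2084 on NKB, 119.9 on NK and 159 on B. The NKB value was 13.1-fold above B (log2 3.71) and at least 14.6-fold above NK, the largest value of any member in both comparisons. Its 3 probe sets share 1 end on MM9, chr1:155334790, and differ in the other, which on the minus strand is the 3′ end. The longest (chr1:155309681-155334790) read 11919 on NKB, 175 on NK and 207 on B, a 57.6-fold excess over B and 68.2-fold over NK. The next (chr1:155311469-155334790) read 3926 on NKB, 137 on NK and 171 on B, or 22.9-fold over B and at least 25.9-fold over NK. The shortest (chr1:155323968-155334790) read 193 on NKB, 72.0 on NK and 114 on B, at least 1.27-fold above each. All 3 probe sets thus read highest on NKB, by amounts that differed widely, with an SD of 2.64 (log2) for NKB minus B.

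Ddx1, which serves in tRNA ligation and, in mouse dendritic cells, in sensing double-stranded RNA, had 1 probe set, at chr12:13226112-13255946. It read 1169 on NKB, 78.7 on NK and 156 on B, 7.51-fold above B (log2 2.91) and at least 8.19-fold above NK. The B value lay just above its detection level. Ddx5 and Ddx17, close paralogues also known as p68 and p72, assist the Drosha complex that cuts miRNA precursors and act as transcriptional coregulators. The sources used here do not say whether the probes tell the pair apart. Ddx5 read 1930.5 on NKB, 631 on NK and 1043 on B, 1.85-fold above B (log2 0.89) and 3.06-fold above NK (log2 1.61). Its 4 probe sets all read highest on NKB and lowest on NK, with excesses of 1.23-fold to 3.21-fold over B and 1.63-fold to 6.35-fold over NK. The SD between them was 0.65 (log2) for NKB minus B.

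Ddx17 read 415 on NKB, 174 on NK and 171 on B, 2.43-fold above B (log2 1.28) and 2.39-fold above NK (log2 1.26). Its probe sets did not agree. The one at chr15:79358166-79377171 read 2814 on NKB, 1313 on NK and 2459 on B, 1.14-fold above B and 2.14-fold above NK. The one at chr15:79365090-79376976 read 541 on NKB, 75.4 on NK and 29.2 on B, at least 3.56-fold and 3.57-fold higher, and the one at chr15:79361919-79377171 was under the level on all 3 arrays. With each probe set brought to the level before averaging, an alternative added after seeing the data, the excess of Ddx17 was 0.62 over B and 0.92 over NK on the log2 scale, under 2-fold in both. Ddx20 (gemin 3), a part of the SMN complex that loads Sm proteins on small nuclear RNA, read 90.7 on NKB, 59.7 on NK and 64.2 on B as a mean, under the level on all 3 arrays. One of its probe sets, at chr3:105481379-105490489, passed the level on NKB alone, with 163 on NKB, 79.1 on NK and 114 on B.

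**Figure D3:**
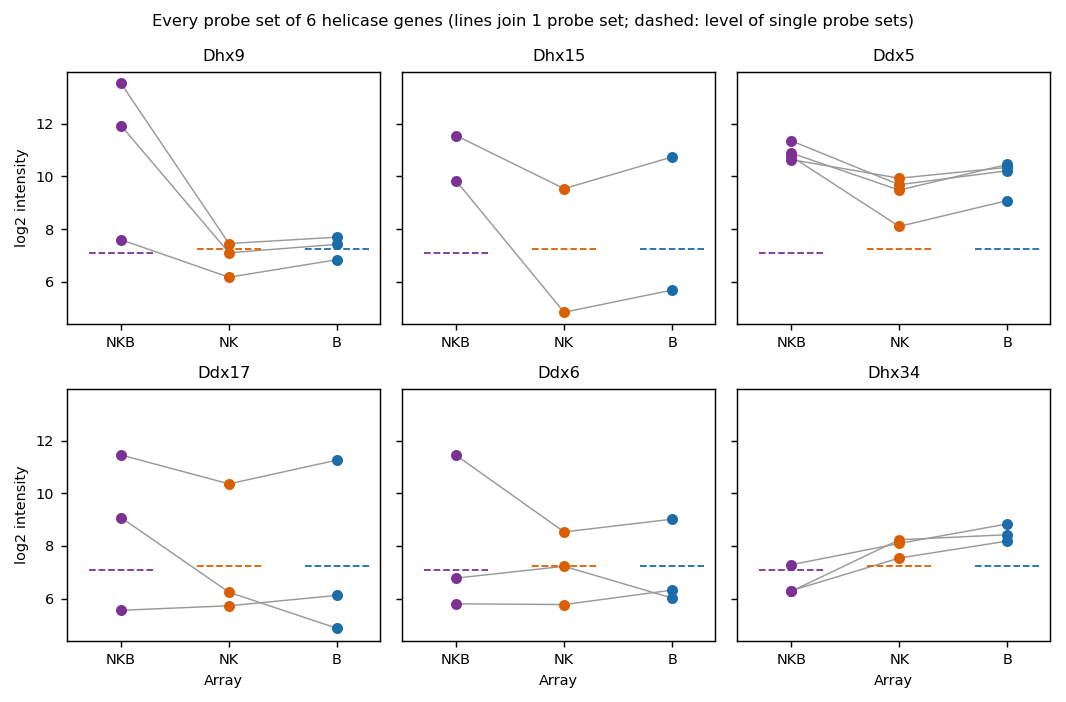
Log2 intensity (y axis) of every probe set of Dhx9, Dhx15, Ddx5, Ddx17, Ddx6 and Dhx34 on the NKB, NK and B arrays (x axis); a line joins the 3 values of 1 probe set and dashes mark the level of single probe sets on each array. The 4 lines of Ddx5 and the 3 of Dhx34 run alike, whereas Ddx17 and Ddx6 each have probe sets under the level on all 3 arrays beside bright ones.

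Of the 10 genes listed as splicing helicases on the array, 2 were higher in NKB than in B, 3 higher than in NK and 0 lower in either. Not all of the 10 meet the rule on names, but the called ones, Dhx15, Ddx23 and Ddx42, do. Dhx15, the mammalian Prp43, takes apart the spliceosome after splicing and has also been described as an RNA sensor. It read 1658 on NKB, 146 on NK and 296 on B, 5.59-fold above B (log2 2.48) and 11.4-fold above NK (log2 3.51), and NK was 2.03-fold below B. Its longer probe set (chr5:52544964-52581728) read 3012 on NKB, 743 on NK and 1712 on B, 1.76-fold above B and 4.05-fold above NK. Its shorter one (chr5:52549903-52552975) read 913 on NKB, 28.6 on NK and 51.3 on B, at least 6.003-fold above B and at least 6.02-fold above NK. The call against NK therefore held in both probe sets, whereas the call against B rested on the shorter one, which only NKB brought above the level.

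Ddx23 (Prp28), which hands the 5′ splice site over to U6 RNA, read 635 on NKB, 119.97 on NK and 133 on B from 1 probe set at chr15:98478427-98493320. Only NKB was above its level, so its excess was at least 4.19-fold over B and at least 4.45-fold over NK. Ddx42, a companion of the SF3b complex that recognises the branch point, was far above the level on every array. It read 2086 on NKB, 980.2 on NK and 1236 on B, 1.69-fold above B (log2 0.76) and 2.13-fold above NK (log2 1.09). One of its probe sets read 2603 on NKB, 905 on NK and 1059 on B and the other 1672 on NKB, 1062 on NK and 1443 on B, so that the excess over NK was 2.88-fold in the first and 1.57-fold in the second. The call against NK was lost with quantile normalization (log2 0.64) and with the brightest probe set (log2 0.65). With arrays shifted to equal medians it fell just under 2-fold (log2 0.997).

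Ddx46 (Prp5), another SF3b companion, read 519.8 on NKB, 459 on NK and 428 on B, within 2-fold of each other. Behind that mean, the probe set at chr13:55736411-55780476 read 1088 on NKB, 439 on NK and 447 on B, 2.43-fold above B and 2.48-fold above NK, while the one at chr13:55754271-55780492 read 248 on NKB, 480.1 on NK and 410.01 on B, the other way. Dhx38 (Prp16), which remodels the spliceosome between its catalytic steps, read 320.2 on NKB, 233 on NK and 186 on B. Its probe set at chr8:112082543-112089501 read 607 on NKB, 158 on NK and 136 on B, 3.83-fold above NK and at least 3.99-fold above B, and its other 2 stayed within 2-fold in both comparisons. Dhx16 (Prp2), which activates the spliceosome for the first step, read lower on NKB than on both other arrays, at 257 on NKB, 394 on NK and 443 on B. That is 0.79 lower than B and 0.62 lower than NK on the log2 scale, and no call. Dhx35 read 109.7 on NKB, 145 on NK and 176 on B, Ddx41, also a sensor of cytosolic DNA, read 116 on NKB, 87.4 on NK and 236 on B, and Dhx8 (Prp22) was under the level on all 3. Neither Dhx35 nor Ddx41 was called in any comparison.

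Of the 16 helicases of ribosome biogenesis, 0 were higher in NKB than in B and 1 was lower, and 0 were called against NK. The lower one was Ddx54, a nucleolar protein of the large subunit pathway, with 1 probe set at chr5:121063138-121078601. It read 99.01 on NKB, 115 on NK and 287 on B, above the level on B alone, so NKB was at least 2.12-fold below B and NK at least 2.01-fold below B. Ddx24, a nucleolar helicase, read 316 on NKB, 181 on NK and 251 on B, 1.26-fold above B and 1.75-fold above NK. Of its 5 probe sets, 2 were under the level on all arrays. The other 3 read 1072 on NKB, 373 on NK and 596 on B, then 1118 on NKB, 259 on NK and 554 on B, and then 872 on NKB, 389 on NK and 513 on B. All 3 thus ran in the order NKB, B and NK, with excesses of 1.70-fold to 2.02-fold over B and 2.24-fold to 4.32-fold over NK, which the 2 dim probe sets pulled down in the mean.

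Ddx10 showed the same thing more strongly. Its mean was 167 on NKB, 123 on NK and 117 on B, above the level on NKB only, but the probe set at chr9:52906741-53056196 read 896 on NKB, 207 on NK and 239 on B, 3.76-fold above B and 4.33-fold above NK, and the other was under the level on all arrays. Ddx55, a large subunit helicase, read 249 on NKB, 72.3 on NK and 202 on B, and Ddx51 read 167 on NKB, 58.3 on NK and 60.4 on B. Ddx49 read 175 on NKB, 176 on NK and 74.5 on B, where 1 probe set was measured on NKB and NK only, at 231 on NKB, 361 on NK and 42.8 on B. Ddx50, the paralogue of Ddx21, read 225 on NKB, 154 on NK and 182 on B, and Ddx47 read 143 on NKB, 129 on NK and 199.8 on B. None of these 6 genes was called as a gene mean in any comparison. Ddx18 was measured on B alone, at 117 on NKB, 131 on NK and 232 on B. The other 7 genes of the list, Ddx21, Ddx27, Ddx31, Ddx52, Ddx56, Dhx33 and Dhx37, were under the level on all arrays as gene means. Single probe sets of Ddx27, at 208 on NKB, 169.5 on NK and 194 on B, and of Ddx56, at 218 on NKB, 119 on NK and 343 on B, were above it on some or all arrays.

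The helicases of translation and mRNA turnover contained the members furthest below B and NK. Of the 5 on the array, 2 were lower in NKB than in B, 1 lower than in NK and 0 higher. Ddx3x, which unwinds structured leaders of mRNA at the start of translation and also takes part in signalling through MAVS, was read by 1 probe set at chrX:12869747-12871109. It read 74.97 on NKB, 334 on NK and 437 on B, so NKB was at least 3.23-fold below B and at least 2.47-fold below NK. Dhx34, which works with Upf1 in nonsense-mediated decay, read 98.2 on NKB, 248 on NK and 357 on B, at least 2.64-fold below B and at least 1.83-fold below NK. Its 3 probe sets share 1 end, chr7:16782569 on MM9, and read 156 on NKB, 273 on NK and 457 on B for the shortest, 77.3 on NKB, 301 on NK and 344 on B for the middle one and 78.6 on NKB, 186 on NK and 291 on B for the longest. Among the 33 members with 2 or more probe sets, Dhx34 was the only one with every probe set at least 2-fold apart between NKB and B, and their SD was 0.30 (log2).

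Ddx6, a repressor of translation that binds the CCR4-NOT complex in P-bodies, read 257 on NKB, 145 on NK and 139 on B, at least 1.70-fold above B and 1.78-fold above NK. One of its 3 probe sets, at chr9:44415263-44445265, read 2794 on NKB, 370.05 on NK and 518 on B, which is 5.39-fold above B and 7.55-fold above NK. The other 2 were under the level on all 3 arrays. Ddx3y, the Y-linked paralogue of Ddx3x, read 45.2 on NKB, 29.7 on NK and 42.8 on B, with every probe set under the level. Dhx29, a helper of the small ribosomal subunit in scanning, was under the level as a mean of 4 probe sets, 1 of which passed it narrowly on NKB, at 137 on NKB, 29.1 on NK and 34.5 on B.

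The genes listed as sensors of viral RNA and DNA were mostly dim. The list is not exhaustive. Dhx15 and Ddx3x, whose links to sensing are given above, were counted under splicing and translation only, and Dhx9 under the coregulators only. Ddx1, Ddx21, Ddx41 and Dhx33 were counted both here and in another role group. Of the 7 listed sensors on the array, 1 (Ddx1) was higher in NKB than in both other populations and 0 were lower. Ddx58, which encodes RIG-I, read 121 on NKB, 106 on NK and 129.9 on B as a mean of 3 probe sets. One of them, at chr4:40170463-40186858, was above the level everywhere, at 333 on NKB, 362 on NK and 327 on B, and differed at most 1.11-fold between any pair of arrays. Dhx58 (LGP2), a regulator of RIG-I and MDA5, read 73.0 on NKB, 56.3 on NK and 77.7 on B as a mean, with 1 probe set above the level on NKB and B, at 154 on NKB, 104 on NK and 207 on B. Ddx60 read 49.0 on NKB, 42.0 on NK and 32.4 on B. Dhx33 read 44.2 on NKB, 49.3 on NK and 29.3 on B and Ddx21, which forms an RNA-sensing complex with Ddx1 in mouse dendritic cells, read 78.3 on NKB, 82.7 on NK and 102 on B. The means of these 5 genes were under the level on all 3 arrays and have no order, and so were all probe sets of Ddx60, Dhx33 and Ddx21.

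Of the 4 mRNA export helicases, 0 were called in any comparison. Ddx39, the close relative of UAP56, read 242 on NKB, 216 on NK and 338 on B. Ddx19a and Ddx19b, near-identical helicases of the nuclear pore, were each above the level on a single array: Ddx19a read 42.3 on NKB, 74.1 on NK and 160.4 on B, and Ddx19b read 156 on NKB, 78.9 on NK and 45.6 on B. With the level applied, NKB was at least 1.19-fold below B for Ddx19a and at least 1.03-fold above B for Ddx19b. Each measured value thus exceeded its level only slightly, and the values under the level have no order. Whether the probes tell such similar genes apart was not tested. Dhx30, a helicase of mitochondrial RNA granules, read 127 on NKB, 90.1 on NK and 162 on B, while Ddx28, its companion in mitochondrial ribosome assembly, was under the level throughout. Ddx59 read 192 on NKB, 78.9 on NK and 167 on B and Dhx40 read 149 on NKB, 60.9 on NK and 125 on B, neither of them called. The germ cell helicases Ddx4 (Vasa) and Ddx43 and the testis helicase Ddx25 had every probe set under the level. The DNA helicase Ddx11 and the less studied Dhx32 and Dhx57 were under it as means. Among their probe sets, 1 of Ddx11 passed it on NK, at 92.7 on NKB, 205 on NK and 99.5 on B, 1 of Dhx32 on B, at 51.0 on NKB, 108 on NK and 168 on B, and 2 of Dhx57: 1 on B, at 46.2 on NKB, 54.1 on NK and 222 on B, and 1 on all 3 arrays, at 208 on NKB, 295 on NK and 315 on B. Ddx26b, now named Ints6l, carries the old symbol but belongs to the Integrator complex and is not a helicase, and its mean was 109 on NKB, 87.2 on NK and 140.1 on B.

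Agreement between the probe sets of a gene limited what the gene means can show. It was read from the deposited intensities with no level. The shares and SDs therefore include probe sets under the level on every array, whose values have no order. Of the 33 members with 2 or more probe sets, all probe sets lay on the same side of 0 in 13 for NKB minus B (39.4%), 11 for NKB minus NK (33.3%) and 15 for NK minus B (45.5%). Over all 10194 genes with 2 or more probe sets these shares were 42.0%, 43.8% and 43.9%. The median SD between probe sets of a member was 0.78, 0.88 and 0.54 on the log2 scale, beside 0.76, 0.80 and 0.54 for all genes. The helicase genes were thus no tighter than other genes on this array. Among these 33, every probe set passed 2-fold in the same direction in 1 member against B (Dhx34) and in 2 against NK (Dhx9 and Dhx15). For Dhx9 this did not hold once the level was applied. Its shortest probe set was then at least 1.27-fold above NK, a bound under 2-fold. Among called members with several probe sets, all probe sets shared the direction in 3 of 4 against B, 4 of 5 against NK and 1 of 1 for NK against B, beside 86.6%, 86.1% and 94.7% of called genes. The exception in both NKB comparisons was Ddx17.

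Opposite changes past 2-fold within 1 gene, read from the deposited intensities with no level, occurred in Ddx26b and Dhx30 between NKB and B, and in Ddx10, Ddx26b, Dhx30 and Dhx35 between NKB and NK. The 4 probe sets of Dhx30 read 127 on NKB, 73.7 on NK and 238 on B, then 236 on NKB, 116 on NK and 166 on B, then 31.4 on NKB, 105 on NK and 207 on B, and then 274 on NKB, 73.3 on NK and 85.4 on B. NKB was thus the highest array in 2 of these probe sets and B in the other 2. For Dhx35, 1 probe set read 25.4 on NKB, 187 on NK and 116 on B and another of the same interval 319 on NKB, 91.8 on NK and 217 on B.

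**Figure D4:**
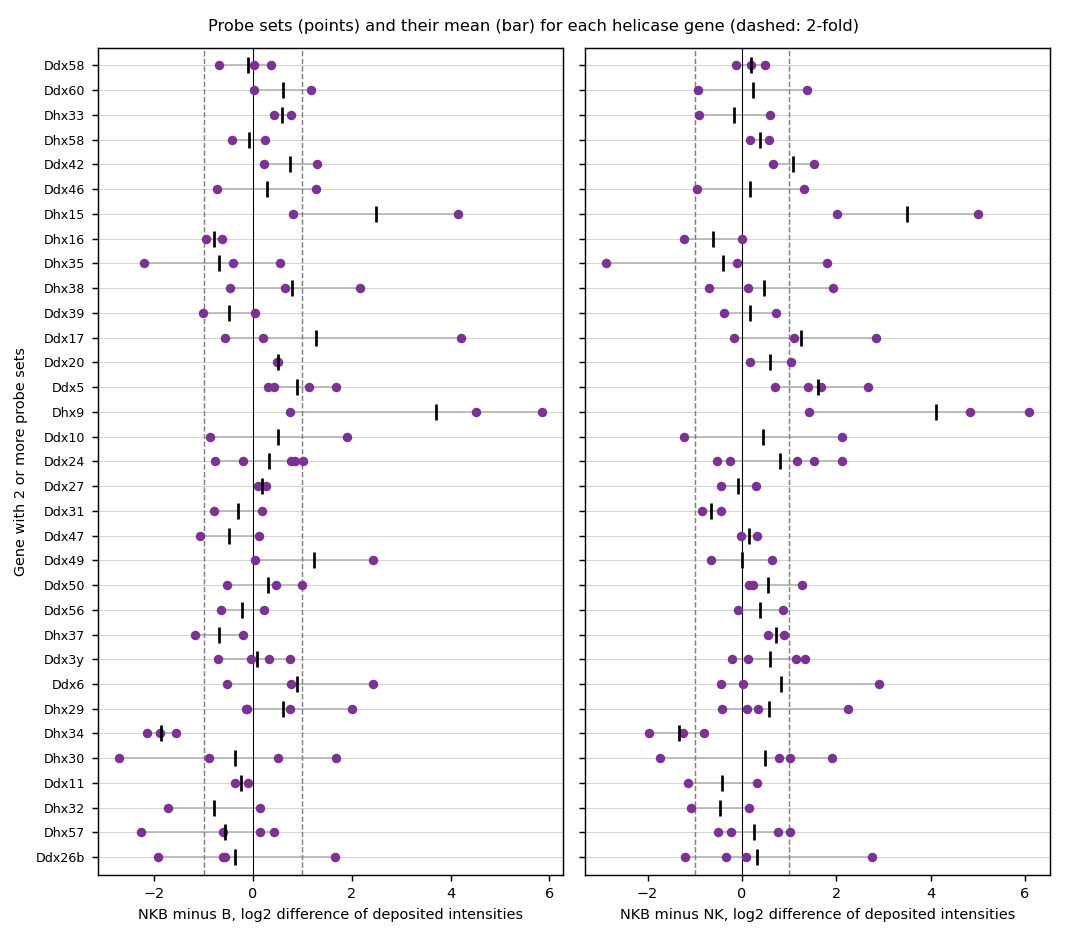
Log2 difference of each probe set (points) and their mean (bar) for the 33 helicase genes with 2 or more probe sets, NKB minus B on the left and NKB minus NK on the right, from the deposited intensities with no detection level; dashed lines mark 2-fold. Dhx9, Dhx15 and Ddx5 have every point to the right of 0 in both panels and Dhx34 every point to the left, while most other genes have points on both sides.

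Counted as single probe sets, more helicase genes were called. Against B, NKB had 15 probe sets from 13 genes at least 2-fold up and 5 at least 2-fold down, or 13.9% and 4.63% of 108, beside 6.27% and 5.82% of all named probe sets. Against NK there were 21 higher from 14 genes and 3 lower, or 19.4% and 2.78%, beside 7.53% and 6.25%. Among probe sets above the level on at least 1 array, 22.7% and 7.58% of the 66 helicase probe sets were higher and lower than B, beside 15.9% and 14.7% in all, and 31.8% and 4.55% were higher and lower than NK, beside 19.1% and 15.8%. Between NK and B, 1 helicase probe set was higher (Ddx49) and 3 lower (Ddx24, Ddx56 and Dhx15), beside 2.8% and 3.49% of all named probe sets. Of all probe sets above the level on at least 1 array, 7.09% were higher and 8.84% lower in that comparison. Probe sets of a gene share the RNA and are not separate samples. The genes that had a probe set higher than B but no call as a mean were Ddx5, Ddx6, Ddx10, Ddx24, Ddx26b, Ddx42, Ddx46 and Dhx38.

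Partners of these helicases, and related helicases without a Ddx or Dhx symbol, were read in the same way. The counts below stand beside 4.5% higher and 4.75% lower of all genes against B and 5.76% and 5.1% against NK. Among genes above the level on at least 1 array the shares were 12.5% and 13.2% against B, and 16.0% and 14.2% against NK. Upf1, the central helicase of nonsense-mediated decay, read 373 on NKB, 349 on NK and 654 on B, 1.76-fold below B, and Eif4a3, the helicase of the exon junction complex, read 248 on NKB, 377 on NK and 331 on B, 1.52-fold below NK. Neither was called. Of 12 nucleolar partners of the ribosome biogenesis helicases, 3 were higher and 1 lower in NKB against B, and 4 higher and 0 lower than in NK. Nucleolin (Ncl), an abundant binder of ribosomal RNA precursors, read 5036 on NKB, 838 on NK and 1563 on B, or 3.22-fold above B and 6.01-fold above NK, and nucleophosmin (Npm1), a nucleolar chaperone, read 1107 on NKB, 262 on NK and 491 on B, or 2.25-fold and 4.22-fold. Nol6, a small subunit processing factor, read 167 on NKB, 292 on NK and 686 on B, or 4.12-fold below B. Of 17 splicing and export partners, 1 was higher and 1 lower against B, and 3 higher and 2 lower against NK. Slu7, a second-step splicing factor, read 1269 on NKB, 299.7 on NK and 179 on B, or 7.07-fold above B and 4.23-fold above NK, and the SF3b subunit Sf3b2 read 511 on NKB, 903 on NK and 1329.97 on B, or 2.60-fold below B. U2af1, which recognises the 3′ splice site, read 834 on NKB, 187 on NK and 425 on B, 4.46-fold above NK, and Rbm17, an alternative splicing factor, read 478 on NKB, 1189.9 on NK and 546 on B, 2.49-fold below NK.

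Of 11 partners of the sensors, 1 was higher and 2 lower in NKB than in each other population. Traf3, an adaptor in type I interferon induction, read 801 on NKB, 135 on NK and 301 on B, or 2.66-fold above B and at least 5.61-fold above NK. Tmem173, which encodes STING, the adaptor for cytosolic DNA signals, read 451 on NKB, 1231 on NK and 1265 on B, or 2.80-fold below B and 2.73-fold below NK, and Irf7, a transcription factor of the interferon response, read 93.2 on NKB, 379 on NK and 324 on B, at least 2.39-fold and at least 2.80-fold lower. Of 9 partners of Ddx6, 1 was higher in both comparisons and 0 lower. This was Cnot1, the scaffold of the CCR4-NOT complex, at 709 on NKB, 201 on NK and 283 on B, or 2.50-fold above B and 3.53-fold above NK. Of its 6 probe sets, 4 read above B, 3 of them at least 2-fold, and all 6 read above NK. Probe sets of the other partners also limit their means. Against B, 1 of 2 passed 2-fold for Sf3b2, Tmem173 and Traf3, 3 of 4 for Npm1 and 2 of 2 for Irf7. Ncl, Nol6, Slu7, U2af1 and Rbm17 had 1 probe set each. Alternatives for gene values were run on the members only.

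The authors' deposited tables list transcripts at least 2-fold apart for NKB against B and for NKB against NK. Matched against all transcripts on the arrays, those lists hold exactly the transcripts at least 2-fold apart whose intensity was 100 or more on at least 2 of the 3 arrays. With no detection level, 7521 of all 44170 transcripts were at least 2-fold higher and 7081 lower on NKB than on B. Against NK, 8362 were higher and 7615 lower. The lists hold 3075, 4142, 3783 and 4094 of them in that order. Among the 108 helicase probe sets, 21 were up at least 2-fold in NKB relative to B, again with no level. Of these, the authors' deposited table lists 14, and of the 15 lower ones it lists 9. Against NK, the authors' deposited table lists 26 of 35 higher and 7 of 11 lower ones. Probe sets that were bright on NKB alone are among those not listed, such as the shorter probe set of Dhx15 and the one of Ddx17 described above. In the authors' deposited table for NKB against NK, 2 helicase genes appear in both directions, and in that for NKB against B there are 0.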

How the data were processed

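Per the labels, total RNA from NKB, NK and B cells was hybridised to 1 array each, and groups were taken from the titles, since the sorting text names another cell type for all 3. The authors deposited a linear intensity for each transcript; RMA is the method that the submitters' processing notes name. Coordinates are on MM9 per the file headers. The log2 ratios in the authors' deposited tables differed from those recomputed from the arrays by at most 1.2e-06. Probe sets of 1 gene name were averaged on the log2 scale; 2284 transcripts without a name were left out. The 95th percentile of the receptor genes set the detection level. Genes were called at 2-fold in Python 3.11.15 with numpy 2.4.6, pandas 2.3.3 and matplotlib 3.10.9, with no test. Arrays limit the precision by their number. The steps were tested on simulated data. Every member may be named in its role group; of the partner and related lists, the 2 largest and 2 smallest differences for NKB against B and against NK were eligible. Members and gene lists (roles, partners, markers) were chosen with earlier results of these data known. Alternatives were the detection level, normalization, probe-set summary, gene names, fold threshold and, added after seeing the data, the level set before averaging. One gene of the related helicases is not reported here. Proteins were not analysed here.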

Additional observations from a re-analysis of the deposited data

How the results depend on the processing

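No paired analysis was possible because there is 1 array per population, and for the same reason no replicate could be left out. Over 111 alternative values of the counts and medians, 63 stayed near the value given and 48 moved. A count has no direction to change, and of the medians 0 reversed their sign. With the 99th percentile as detection level, NKB against B had 3 members higher and 0 lower, NKB against NK 0 lower, and NK against B 0 lower; 3 members stood above both and 0 below both, 10, 3 and 5 members were detected on NKB, NK and B, and the median differences over members measured on at least 1 of the arrays were 0.44 (NKB minus B), 0.88 (NKB minus NK) and -0.16 (NK minus B). Ddx17 turned to -0.0215 for NKB minus B there, and Ddx23, Ddx3x, Dhx34 and Ddx54 lost their calls. Of all 24203 genes, 456 were higher and 617 lower against B at that level, and 584 and 604 against NK. For NK against B they were 171 and 269. With no detection level the counts were 8 higher and 5 lower, 11 and 3, and 2 and 8, with medians of 0.31, 0.83 and -0.53 and 2 members below both. Taking the brightest probe set gave 8 higher against B, 12 higher and 2 lower against NK, 1 higher for NK against B and 8 above both, and dropped Dhx15 (0.81) and Ddx17 (0.19) against B. The brightest probe sets of all genes gave 1849 higher and 1622 lower against B, and 2176 and 1793 against NK. For NK against B they gave 835 and 971. Each probe set apart gave 15 higher and 5 lower, 21 and 3, and 1 higher for NK against B, with a median of 0.58 for NKB minus NK, 15 above both, 2 below both, and 51, 36 and 49 detected on NKB, NK and B. A 3-fold threshold left 1 member lower against B, 0 lower against NK, 0 lower for NK against B and 0 below both. At 3-fold, 459 of all genes were lower against B, 523 against NK and 224 for NK against B. Quantile normalization, arrays shifted to equal medians of the genes detected on all 3, and the level set on each probe set before averaging each left 0 members lower for NK against B. Equal medians moved the median of all genes to 0.11, -0.08 and 0.17, gave member medians of 0.28 for NKB minus B and -0.089 for NK minus B, lost Ddx54 against B (-0.99), and turned the split of all genes for NK against B to 723 higher and 452 lower, beside 534 and 687; after quantile normalization it was 656 and 577. Updated symbols gave a median of 0.29 for NKB minus NK. The cause of these shifts was not tested. The calls of Dhx9, Ddx1 and, against NK, of Dhx15 and Ddx5 held under every alternative for gene values listed here. Gene means under the level on all 3 arrays have no order between arrays.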

Other observations

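A transcript without a gene name in the annotation, described there as a chimeric clone with Ddx23 and placed at chr15:98481674-98493295 on MM9, read 5438 on NKB, 289.7 on NK and 184 on B, which is 29.5-fold above B and 18.8-fold above NK. The rule on gene names leaves it out. Bat1a, now named Ddx39b, encodes UAP56, the helicase that loads the export complex on spliced mRNA, and is likewise outside the rule by its old symbol. Its 3 probe sets read 1228 on NKB, 731 on NK and 1346 on B, then 871 on NKB, 713 on NK and 1690.4 on B, and then 161 on NKB, 430.4 on NK and 581 on B. All 3 thus read lower on NKB than on B, by sizes that differ between probe sets.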
